A study of Rattus norvegicus with 12 samples.

Results

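The genes described here make cholesterol and fatty acids, or steer and supply that synthesis, and they were followed in cultured astrocytes of the rat optic nerve head treated with EGF, the epidermal growth factor that activates its receptor EGFR. The set was given as 36 gene symbols: the enzymes from acetyl-CoA to cholesterol, the regulators of the sterol response with 1 sterol carrier, and the enzymes that build, desaturate, elongate and activate fatty acids. A gene was measured by the probe set that carries its symbol alone, and by the brightest over all 12 arrays where it had several. In this way 35 of the 36 genes were found, among 14218 genes named on the array, and all 35 were bright enough to be tested. The exception, Hmgcs1, which makes HMG-CoA in the mevalonate branch, was not analysed here.

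Primary astrocytes were grown from the optic nerve head, where the axons of the retinal ganglion cells leave the eye, and 2 experiments were done. The first compared cultures after 4 h of EGF with sister controls, and the second compared cultures after 12 h of EGF with a separate group of controls. Each of the 4 groups has 3 arrays. The titles gave the groups, because every sample is described as a control. The sources used here give neither the EGF dose nor the rats' strain or age. Whether the replicates came from separate cultures is not stated, so the p-values may measure technical spread only.

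Cholesterol is built from acetyl-CoA through mevalonate, farnesyl diphosphate, squalene and lanosterol, and fatty acids from acetyl-CoA through malonyl-CoA. Both branches are under the sterol regulatory element-binding proteins (SREBPs). These transcription factors are held in the endoplasmic reticulum by Scap and the Insig proteins and are released for cleavage when membrane sterol is low. In the nervous system, astrocytes make cholesterol for their own membranes and hand it to neurons in lipoproteins.

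The array values are signal intensities, which rise with the amount of transcript but cannot be set against each other between genes. The log2 fold changes below are EGF over control with their standard error (SE), and a gene is called higher or lower where limma's p-value, adjusted over all 18625 probe sets tested, was under 0.05. Libraries stood apart in 2 ways. The replicate 3 pair at 4 h had bacterial BioD control signals of 21081 with EGF and 24461 in its control, against at most 595 on any other array. At 12 h all arrays but EGF replicate 3 had an actin 3'/5' ratio between 11.1 and 21.7, against 1.24 on EGF replicate 3 and 1.20 to 1.61 at 4 h. Of 11 astrocyte markers with a probe set, 6 were above the signal limit, among them Vim and Gja1, while Gfap, Slc1a2, Aqp4, Aldh1l1 and Fabp7 were below it. Gfap, the defining marker, averaged 195 ± 84.7 with EGF and 215 ± 48 in the controls (SD, n = 3 each) at 4 h and 130.1 ± 109 with EGF and 201 ± 131 in the controls (SD, n = 3 each) at 12 h.

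The CCAAT box, bound by NF-Y, a factor known to act beside the SREBPs on many of these genes, was searched for in the promoters, since so many of the genes moved together at 12 h. RefSeq promoters of the GRCr8 assembly, from 250 bases before to 50 bases after the start, were at hand for 29 of the 36 genes, 30 promoters in all because Srebf1 had 2. CCAAT stood on either strand in 23 of these 30 promoters (76.7%), against 37.5% of all 33469 promoters in the table. The genes that were higher at 12 h had it in 13 of 17 promoters (76.5%), and the remaining promoters in 10 of 13 (76.9%), so the shares were near equal. The remaining promoters include both of Srebf1 and that of Hmgcs1, whose response was not measured. They are therefore not 13 genes known to respond otherwise. The sterol element TCACNCCAC, also searched on both strands, was in 0 of the 30 promoters and in 1.12% of all promoters. Only this form was searched, with no mismatch allowed. At so low a share over all promoters, 0 of 30 cannot show that these genes lack sterol elements. With 0 matches, there was no overlap of the 2 motifs to examine. A match is a description of these letters and no test of binding.

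The promoters of 5 genes with contrasting responses are printed, because the same box stands in genes that were higher at both times (Msmo1, Hsd17b7), higher at 12 h (Insig1), lower at both times (Insig2) and higher at 4 h only by the calls (Acsl1). These promoters are placed by the RefSeq starts alone, and whether the astrocytes use these starts was not tested. The boxes of Insig2 and Acsl1 in particular cannot be taken as parts of active promoters. Msmo1 lies at chr16:29746863-29747162 on the plus strand, Hsd17b7 at chr13:84722705-84723004 on the minus strand, Insig1 at chr4:8057720-8058019 on the minus strand, Insig2 at chr13:35040049-35040348 on the minus strand and Acsl1 at chr16:52532343-52532642 on the minus strand. Each is written 5′ to 3′ along its gene, with CCAAT or its complement ATTGG in capitals.
Msmo1: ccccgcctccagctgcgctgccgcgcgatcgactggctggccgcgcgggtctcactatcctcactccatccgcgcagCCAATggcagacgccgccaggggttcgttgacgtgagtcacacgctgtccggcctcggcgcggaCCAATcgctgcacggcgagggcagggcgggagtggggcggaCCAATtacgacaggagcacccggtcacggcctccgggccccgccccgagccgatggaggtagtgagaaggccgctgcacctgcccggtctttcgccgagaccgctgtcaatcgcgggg
Hsd17b7: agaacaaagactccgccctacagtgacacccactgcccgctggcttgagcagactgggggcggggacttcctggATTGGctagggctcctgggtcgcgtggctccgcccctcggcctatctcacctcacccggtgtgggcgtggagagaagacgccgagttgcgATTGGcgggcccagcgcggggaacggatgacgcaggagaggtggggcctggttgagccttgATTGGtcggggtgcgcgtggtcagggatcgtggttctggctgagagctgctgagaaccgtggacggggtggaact
Insig1: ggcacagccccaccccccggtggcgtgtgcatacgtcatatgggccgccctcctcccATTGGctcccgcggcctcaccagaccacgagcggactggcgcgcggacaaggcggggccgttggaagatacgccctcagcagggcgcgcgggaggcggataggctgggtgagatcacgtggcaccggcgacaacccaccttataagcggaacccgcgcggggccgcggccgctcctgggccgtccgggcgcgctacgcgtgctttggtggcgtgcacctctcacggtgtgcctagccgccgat
Insig2: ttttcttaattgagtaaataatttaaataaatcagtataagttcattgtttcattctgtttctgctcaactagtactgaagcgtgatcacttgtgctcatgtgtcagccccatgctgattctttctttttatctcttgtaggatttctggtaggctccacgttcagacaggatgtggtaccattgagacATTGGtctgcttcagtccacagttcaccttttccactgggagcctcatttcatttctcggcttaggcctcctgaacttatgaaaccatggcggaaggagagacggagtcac
Acsl1: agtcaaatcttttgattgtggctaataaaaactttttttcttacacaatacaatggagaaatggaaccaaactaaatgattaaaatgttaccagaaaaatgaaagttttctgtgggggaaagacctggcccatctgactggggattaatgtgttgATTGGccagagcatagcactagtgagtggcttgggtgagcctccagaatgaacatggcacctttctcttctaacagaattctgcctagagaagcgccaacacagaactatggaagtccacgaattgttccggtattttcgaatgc
Counted from the gene's start, the boxes of Msmo1 begin at -173, -109 and -68 and read CCAAT along the gene, whereas those of Hsd17b7 at -176, -86 and -25 read ATTGG. Insig1, Insig2 and Acsl1 have a single box each, beginning at -193, -61 and -95, and all 3 read ATTGG.

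At 4 h of EGF, 11 of the 35 genes were higher and 5 lower, and 19 passed in neither direction. Over all 10261 genes tested, 12.8% were higher and 19.6% lower at this time, and the median log2 fold change was 0.15 for the 35 genes and -0.17 for all genes. At 12 h, 21 were higher, 1 was lower and 13 passed in neither direction, against 16.5% higher and 24.2% lower over all genes. The median at 12 h was 0.97 for the 35 genes and -0.09 for all genes. Without the replicate 3 pair, the 4 h counts were 8 higher and 4 lower, with 10.4% and 13.9% over all genes. Without EGF replicate 3, the 12 h counts were 23 higher and 1 lower, with 18.1% and 23.5% over all genes. In bulk RNA such as this, fewer cells of a type and less RNA per cell cannot be told apart, and the signals of other cell types' markers are given after the gene results.

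**Figure D1:**
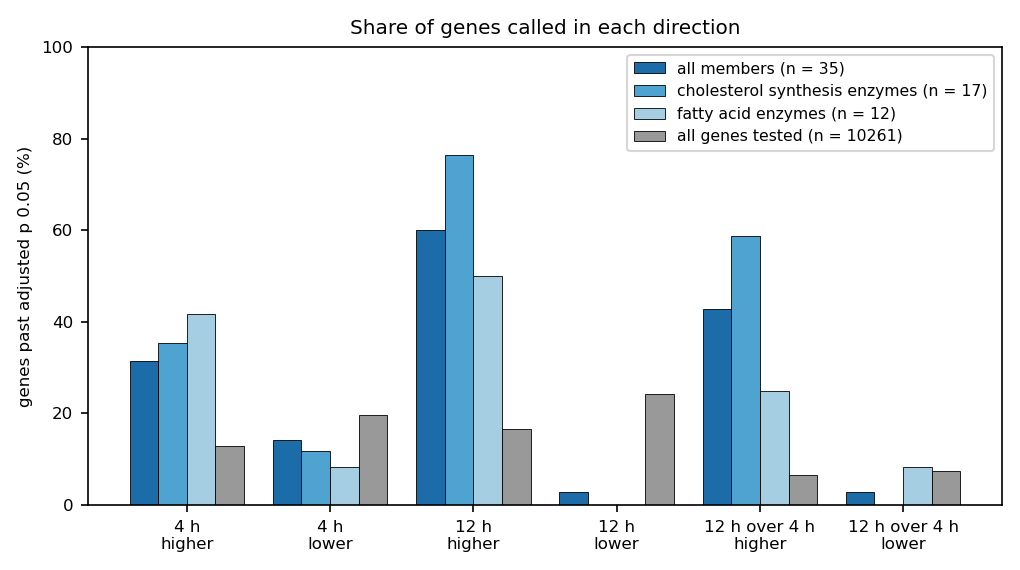
Share of genes called higher or lower (percent, limma adjusted p under 0.05) among the sterol and fatty acid genes and among all genes tested, for EGF against control at 4 h, at 12 h, and for the difference between the 2 effects. Among the 35 genes 21 were higher at 12 h, against 16.5% of all genes.

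The branches were counted apart, and a difference between them was not tested. Over all genes, 12.8% were higher and 19.6% lower at 4 h, and 16.5% and 24.2% at 12 h. Of the 17 cholesterol synthesis enzymes tested, 6 were higher (35.3%) and 2 lower (11.8%) at 4 h, and 13 were higher (76.5%) at 12 h. None of the 17 was lower at 12 h by limma, and none had an unadjusted p under 0.05 in that direction. Of the 12 fatty acid enzymes, 5 were higher (41.7%) and 1 lower (8.33%) at 4 h. At 12 h 6 were higher (50%) and 0 lower by limma, again with 0 lower at an unadjusted p under 0.05. The 10 genes higher at both times were Idi1, Fdps, Sqle, Cyp51, Msmo1, Hsd17b7, Acly, Fasn, Elovl6 and Acsl3. Another 10 passed at 12 h alone: Acat2, Mvd, Fdft1, Lss, Nsdhl, Ebp, Srebf2, Insig1, Acss2 and Scd. The shares of all genes with these combinations of calls were not counted.

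**Figure D2:**
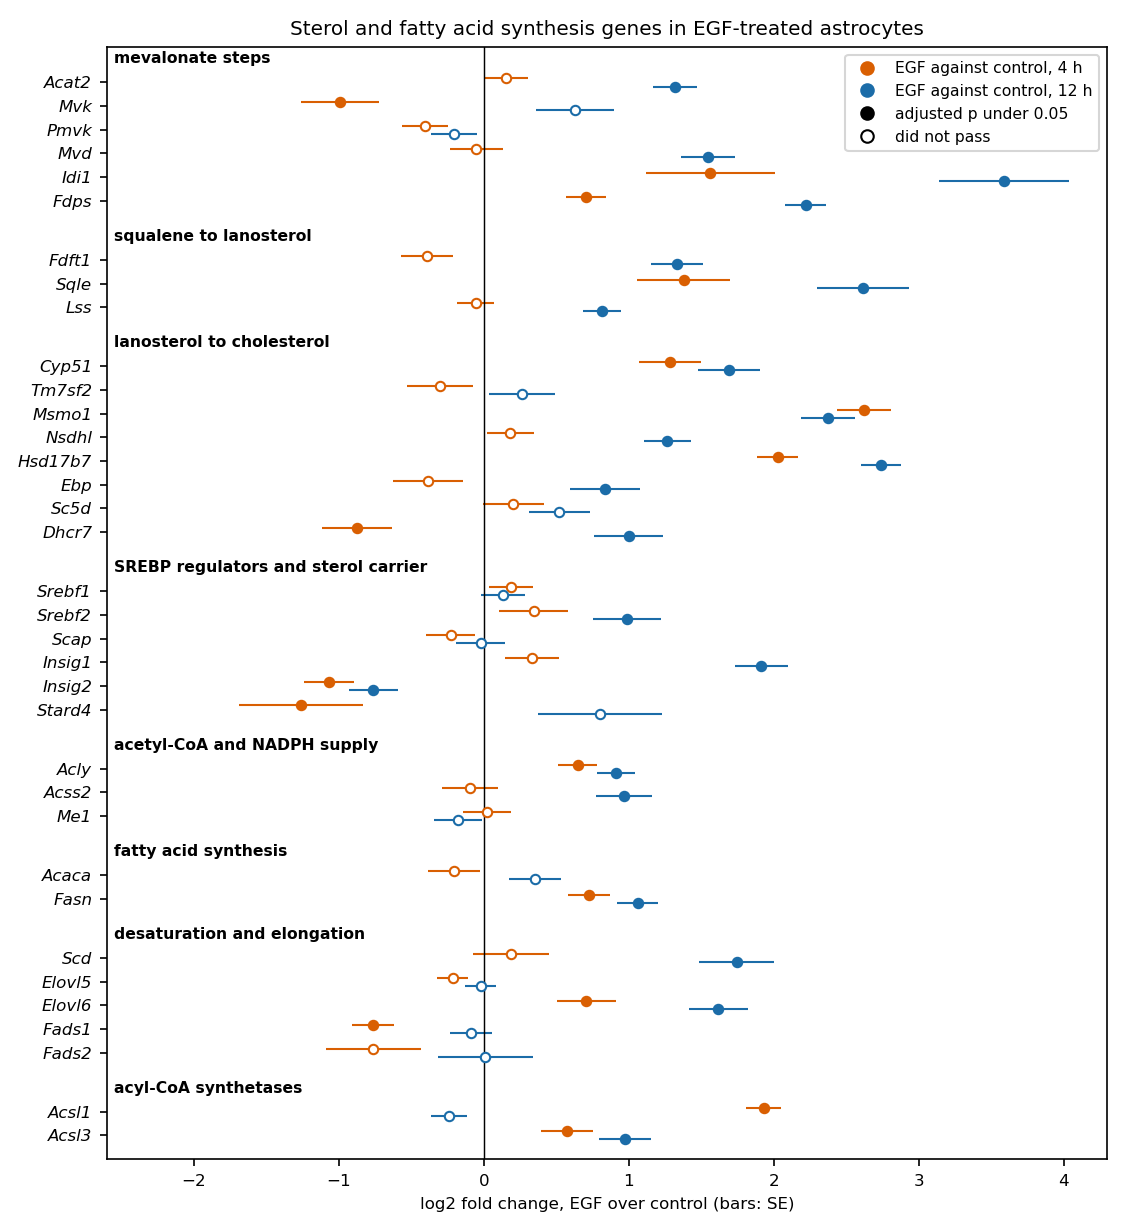
Log2 fold change of EGF over control (points, with SE bars) for each of the 35 genes at 4 h and at 12 h, grouped by role. Idi1 has the highest value at 12 h (3.59) and Msmo1 at 4 h (2.62), while Insig2 is called lower at both times.

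Among the mevalonate steps, Idi1 and Fdps were higher at both times. Idi1, the isomerase of isopentenyl diphosphate, had signals of 8589.6, 6752 and 7159 with EGF at 4 h, against 1904, 2614 and 3162 in the controls, a log2 fold change of 1.56 ± 0.45 (adjusted p = 0.0185). At 12 h its signals were 2399.9, 3694 and 13187 with EGF, against 375, 314 and 482 in the controls, a log2 change of 3.59 ± 0.45 (adjusted p = 3.72e-05). The groups did not overlap at either time, but EGF replicate 3 at 12 h stood far above the other 2, and without it the change was 2.88. That array was the 1 of 12 h with a low actin 3'/5' ratio (1.24). For Idi1 the EGF mean at 12 h was 0.857 times that at 4 h, and the control mean was 0.153 times that at 4 h. Such ratios between the times, here and for later genes, set arrays with unlike actin ratios against each other. A change with time cannot be told apart from that. Its 4 h call was lost without EGF replicate 1 or control replicate 1 (adjusted p by limma 0.0638 to 0.0752) and without the replicate 3 pair.

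Fdps makes farnesyl diphosphate, the branch point to sterols and to prenylated proteins. Its signals were 11054, 9531 and 10109.8 with EGF at 4 h, against 6062, 6518 and 6186 in the controls, a log2 change of 0.71 ± 0.14 (adjusted p = 0.00217). At 12 h they were 11410.3, 16309 and 14739 with EGF, against 2696, 3015 and 3266 in the controls, a log2 change of 2.22 ± 0.14 (adjusted p = 8.04e-08). EGF arrays were above all controls at both times. The EGF mean at 12 h was 1.38 times that at 4 h, and the control mean was 0.478 times that at 4 h.

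Acat2 and Mvd passed at 12 h alone. Acat2, the cytosolic thiolase that opens the pathway, had 2920.5, 2892 and 2512 with EGF at 4 h, against 2074, 2725 and 2720.2 in the controls, groups that overlapped, with a log2 change of 0.15 ± 0.15 (adjusted p = 0.503). After 12 h it had 7059, 7882 and 5727 with EGF, against 2819, 2708 and 2649 in the controls, which did not overlap, a log2 change of 1.32 ± 0.15 (adjusted p = 1.99e-05). Mvd, the decarboxylase of mevalonate diphosphate, showed near equal signals at the earlier time, 648, 599 and 685 with EGF at 4 h, against 639.8, 675 and 685 in the controls, a log2 change of -0.05 ± 0.19 (adjusted p = 0.878). At 12 h Mvd had 1418, 1782 and 1896 with EGF, against 591, 462 and 645 in the controls, a log2 change of 1.55 ± 0.19 (adjusted p = 2.68e-05), with every EGF array above every control.

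Mvk, mevalonate kinase, was lower at 4 h. Its signals were 447, 303 and 406 with EGF at 4 h, against 717, 992 and 668 in the controls, a log2 change of -0.99 ± 0.27 (adjusted p = 0.0141), and the EGF arrays lay below all controls. At 12 h the groups overlapped, with 967, 839 and 1477 with EGF, against 574, 911 and 596 in the controls, a log2 change of 0.63 ± 0.27 (adjusted p = 0.0842). The 4 h call was lost without EGF replicate 2 or control replicate 2, at adjusted p by limma of 0.0646 to 0.0683, and the 12 h call was gained without control replicate 2 (0.0468). Its second tested probe set had -0.98 ± 0.55 at 4 h (adjusted p = 0.208), which did not pass. Pmvk, the next kinase of the pathway, passed at neither time, with log2 changes of -0.40 ± 0.16 (adjusted p = 0.0739) and -0.20 ± 0.16 (adjusted p = 0.337).

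The 3 enzymes from farnesyl diphosphate to lanosterol were all higher at 12 h, and Sqle also at 4 h. Sqle, squalene epoxidase, is a known flux-controlling step. Its signals were 6391, 4797 and 2708 with EGF at 4 h, against 1602, 2161 and 1324 in the controls, a log2 change of 1.38 ± 0.32 (adjusted p = 0.00578), with EGF replicate 3 the lowest of its group and still above the controls. At 12 h Sqle had 4503, 6426 and 10457 with EGF, against 1003, 1038 and 1192 in the controls, a log2 change of 2.62 ± 0.32 (adjusted p = 3.18e-05).

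Fdft1, squalene synthase, had 1209, 1034 and 1615 with EGF at 4 h, against 1350.2, 1790.4 and 1911 in the controls, groups that overlapped, with a log2 change of -0.39 ± 0.18 (adjusted p = 0.126). At 12 h Fdft1 had 4272, 4138 and 4318 with EGF, against 1724, 1767 and 1515 in the controls, clear of each other, a log2 change of 1.34 ± 0.18 (adjusted p = 7.16e-05). Without EGF replicate 3 at 4 h, Fdft1 was lower at that time (adjusted p by limma 0.032). Lss, which closes squalene epoxide to lanosterol, had 2535, 2258 and 2091 with EGF at 4 h, against 2600.5, 2273 and 2278 in the controls and no call, with a log2 change of -0.06 ± 0.13 (adjusted p = 0.791). Its 12 h signals were 3398, 3164 and 3045 with EGF, against 1732, 1849 and 1837 in the controls, a log2 change of 0.82 ± 0.13 (adjusted p = 0.000267), the smallest 12 h change of the 3 enzymes, with EGF arrays above all controls. Its second probe set, much dimmer, had 447, 360.2 and 514 with EGF at 4 h, against 239, 101 and 79.3 in the controls, a log2 change of 1.61 ± 0.74 (adjusted p = 0.128) with no overlap, unlike the brighter one. After 12 h it had 37.6, 102 and 792 with EGF, against 43.8, 34.6 and 46.2 in the controls, a log2 change of 1.50 ± 0.74 (adjusted p = 0.133), so only EGF replicate 3 stood far above the controls.

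Of the 8 enzymes from lanosterol to cholesterol, 3 were higher and 1 lower at 4 h, and 6 were higher and 0 lower at 12 h by limma, with 0 lower at an unadjusted p under 0.05. These were 37.5% higher and 12.5% lower at 4 h and 75% higher at 12 h. The shares of all genes were 12.8% and 19.6% at 4 h and 16.5% higher at 12 h. Msmo1, the methylsterol oxidase, had the highest 4 h change of the 35 genes. Its signals were 24839.9, 24294 and 37563 with EGF at 4 h, against 3840.3, 4462 and 5597 in the controls, a log2 change of 2.62 ± 0.19 (adjusted p = 4.16e-07). At 12 h they were 26234, 31812 and 24657 with EGF, against 4961, 4894 and 6011 in the controls, a log2 change of 2.37 ± 0.19 (adjusted p = 5.83e-07), so its 2 changes lay close together and its groups were far apart at both times.

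Hsd17b7, the ketoreductase that works in the same demethylation complex, had 4267, 4232 and 4162 with EGF at 4 h, against 883, 1066 and 1111 in the controls, a log2 change of 2.03 ± 0.14 (adjusted p = 3.07e-07). Its 12 h signals were 6803, 5551 and 5447 with EGF, against 812, 889.5 and 888 in the controls, a log2 change of 2.74 ± 0.14 (adjusted p = 1.24e-08). Every EGF array lay far above the highest control at both times, with little spread within the groups. Cyp51, the lanosterol demethylase, had 11638, 10221 and 14126 with EGF at 4 h, against 3983, 5159 and 5584 in the controls, a log2 change of 1.29 ± 0.21 (adjusted p = 0.000602). At 12 h Cyp51 had 21285, 23143 and 13219.5 with EGF, against 6302, 4722 and 6399.9 in the controls, a log2 change of 1.69 ± 0.21 (adjusted p = 4.33e-05), with EGF replicate 3 the lowest of its group.

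Nsdhl, the sterol dehydrogenase of the demethylation complex, had 3152, 3119 and 4357 with EGF at 4 h, against 2793, 2924 and 3562 in the controls, which overlapped, a log2 change of 0.18 ± 0.16 (adjusted p = 0.441). At 12 h it had 9310.5, 7877 and 7556 with EGF, against 3534, 3010 and 3689 in the controls, a log2 change of 1.27 ± 0.16 (adjusted p = 4.66e-05), clear of the controls. Ebp, the sterol isomerase, had 787, 643 and 934 with EGF at 4 h, against 1063, 1011 and 1006 in the controls, a log2 change that did not pass, at -0.39 ± 0.24 (adjusted p = 0.263). Its 12 h signals were 950.4, 1049 and 1942 with EGF, against 706, 662 and 693 in the controls, a log2 change of 0.84 ± 0.24 (adjusted p = 0.0153), with EGF replicate 3 the highest.

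Dhcr7, the reductase of the last step, was lower at 4 h and higher at 12 h. Its signals were 633, 554 and 802 with EGF at 4 h, against 1224, 1226 and 1214 in the controls, a log2 change of -0.87 ± 0.24 (adjusted p = 0.0144), with the EGF arrays below all controls. At 12 h they were 2682, 2915 and 1989.6 with EGF, against 1228, 871 and 1755 in the controls, a log2 change of 1.00 ± 0.24 (adjusted p = 0.00498), with the EGF arrays above all controls. The 4 h call was lost without EGF replicate 2 (adjusted p by limma 0.0644). Tm7sf2 and Sc5d, a sterol reductase and a sterol desaturase, passed at neither time. Tm7sf2 had log2 changes of -0.30 ± 0.23 (adjusted p = 0.369) and 0.26 ± 0.23 (adjusted p = 0.399), and Sc5d had 0.20 ± 0.21 (adjusted p = 0.518) and 0.52 ± 0.21 (adjusted p = 0.0693). Without EGF replicate 3 at 12 h, Sc5d was higher at that time (adjusted p by limma 0.00168). Of its 2 dimmer probe sets, 1 was called higher at 12 h, with a log2 change of 1.31 ± 0.27 (adjusted p = 0.00206), and the other had 0.34 ± 0.16 (adjusted p = 0.125).

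**Figure D3:**
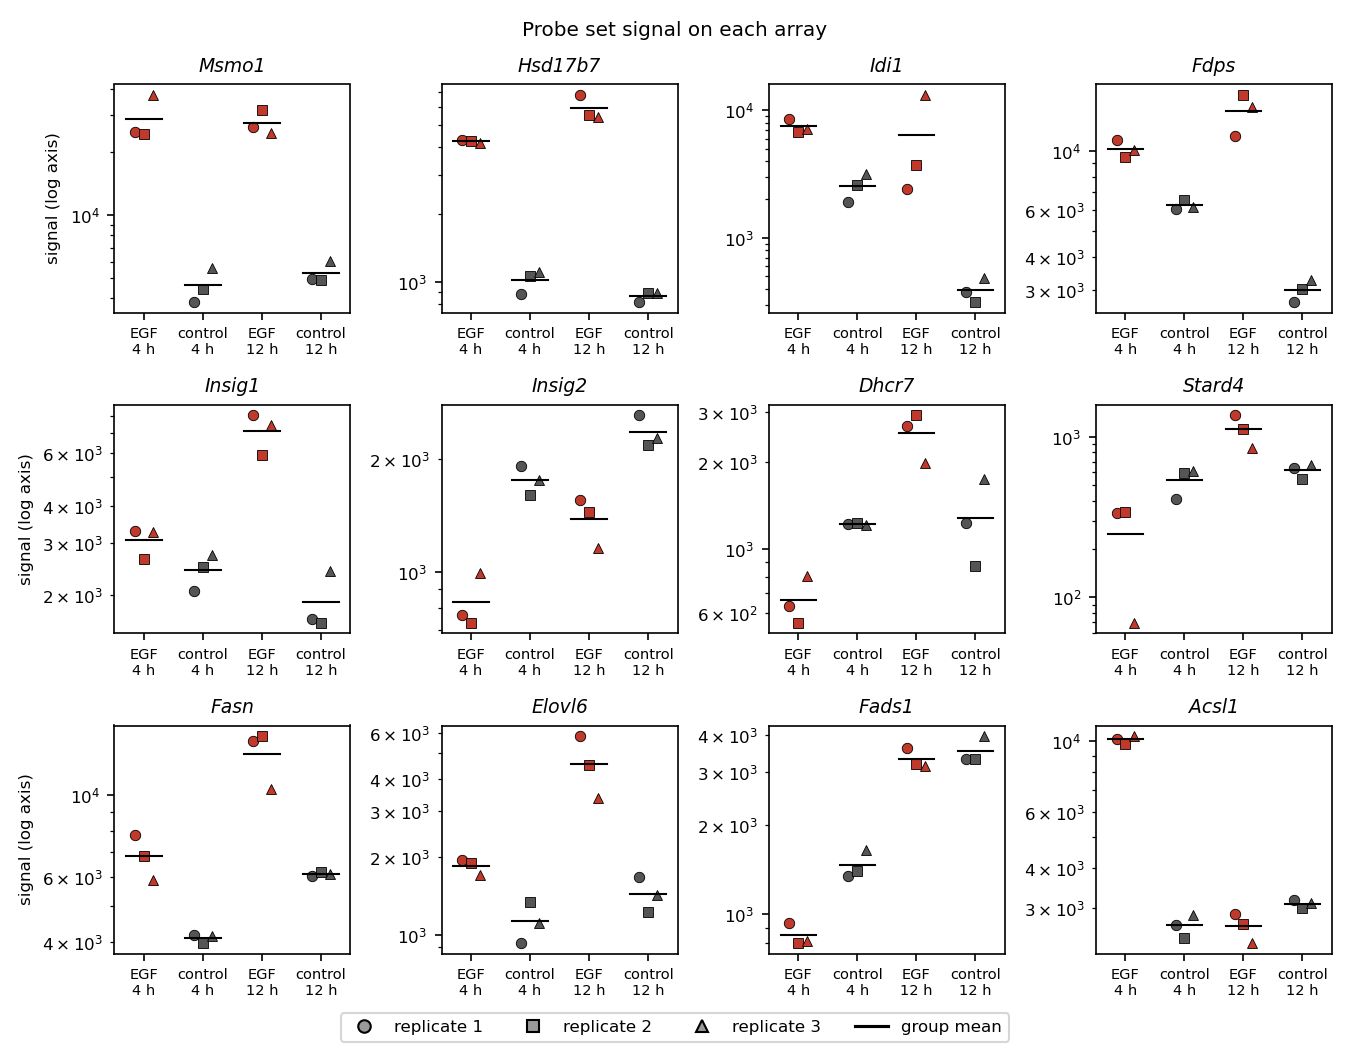
Signal intensity on each array (points, log scale) for 12 of the genes, with EGF left of control at 4 h and at 12 h and a bar at the group mean. Msmo1 and Hsd17b7 are separated at both times, Insig2 is lower with EGF at both, and Acsl1 is separated at 4 h.

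The regulators moved in different directions. Insig1 and Insig2 both retain the SREBP and Scap complex in the endoplasmic reticulum, and Insig1 is itself a known SREBP target. Insig1 had 3275, 2634 and 3254 with EGF at 4 h, against 2069, 2479 and 2724 in the controls, which overlapped, a log2 change of 0.33 ± 0.18 (adjusted p = 0.206). After 12 h it had 8057, 5914 and 7459 with EGF, against 1659, 1612 and 2403 in the controls, a log2 change of 1.92 ± 0.18 (adjusted p = 3.72e-06), with the EGF arrays above all controls. Insig2 had 769.5, 732 and 996 with EGF at 4 h, against 1918, 1600.1 and 1760.1 in the controls, a log2 change of -1.07 ± 0.17 (adjusted p = 0.000437). At 12 h Insig2 had 1552, 1449 and 1159 with EGF, against 2617, 2185 and 2271 in the controls, a log2 change of -0.76 ± 0.17 (adjusted p = 0.00346), so it was lower at both times without overlap. Its dimmer probe set was lower at 4 h (-1.02) and not at 12 h (-0.13, adjusted p by limma 0.589).

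Srebf2, which encodes the SREBP that acts mostly on sterol genes, had 4828, 3937 and 2982 with EGF at 4 h, against 3706, 3271 and 2269.5 in the controls, a log2 change of 0.35 ± 0.24 (adjusted p = 0.313). At 12 h it had 7004, 6108 and 10695 with EGF, against 4386, 3539 and 3732 in the controls, a log2 change of 0.99 ± 0.24 (adjusted p = 0.00519), with EGF replicate 3 the highest. Srebf1, which encodes the SREBP that acts mostly on fatty acid genes, had 1990.1, 2004 and 2578 with EGF at 4 h, against 2039.6, 1933 and 1748 in the controls, a log2 change of 0.19 ± 0.15 (adjusted p = 0.393). Its 12 h signals were 3678, 2840 and 2901 with EGF, against 3044, 2750 and 2754 in the controls, a log2 change of 0.13 ± 0.15 (adjusted p = 0.535), and its groups overlapped at both times. Scap, the sterol-sensing escort, passed at neither time, with log2 changes of -0.23 ± 0.17 (adjusted p = 0.354) and -0.02 ± 0.17 (adjusted p = 0.939).

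Stard4, a carrier of sterol between membranes, was lower at 4 h with 1 array deciding its size. Its signals were 338, 338 and 69.6 with EGF at 4 h, against 407, 597 and 611 in the controls, a log2 change of -1.26 ± 0.43 (adjusted p = 0.0412). Without EGF replicate 3 the change was -0.61, which did not pass (adjusted p by limma 0.105), and the call was also lost without any of 7 other arrays. With the replicate number as a block, its adjusted p by limma at 4 h was 0.0559. Its second tested probe set had -0.23 ± 0.31 at 4 h (adjusted p = 0.635) and was higher at 12 h, at 1.07 ± 0.31 (adjusted p = 0.0162). At 12 h its signals were 1361, 1119.9 and 856 with EGF, against 638, 549 and 668 in the controls, a log2 change of 0.80 ± 0.43 (adjusted p = 0.16), with the EGF arrays above the controls. Of the 12 arrays left out singly, EGF replicate 3 of 4 h gave it a 12 h call (adjusted p by limma 0.0165).

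Of the genes that supply acetyl-CoA and NADPH, Acly was higher at both times. Acly, which splits citrate to acetyl-CoA, had 12691, 11179 and 9365 with EGF at 4 h, against 7119, 7268 and 6649 in the controls, a log2 change of 0.65 ± 0.13 (adjusted p = 0.00257). After 12 h it had 13219, 11882 and 14986 with EGF, against 6844, 6925 and 7387 in the controls, a log2 change of 0.91 ± 0.13 (adjusted p = 0.000135), and its groups were apart at both times. Acss2, which makes acetyl-CoA from acetate, had 1642, 1324 and 1351 with EGF at 4 h, against 1369, 1476 and 1766 in the controls, a log2 change of -0.09 ± 0.19 (adjusted p = 0.768), with overlap. At 12 h Acss2 had 5455, 5075 and 3317 with EGF, against 2313, 2027 and 2572 in the controls, a log2 change of 0.97 ± 0.19 (adjusted p = 0.00152). Me1, malic enzyme, passed at neither time, with log2 changes of 0.03 ± 0.17 (adjusted p = 0.93) and -0.18 ± 0.17 (adjusted p = 0.429).

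The 2 enzymes of fatty acid synthesis differed in their calls. Fasn, fatty acid synthase, had 7771, 6848 and 5892 with EGF at 4 h, against 4187, 3970.4 and 4149 in the controls, a log2 change of 0.72 ± 0.14 (adjusted p = 0.00208). At 12 h Fasn had 13941, 14414 and 10336 with EGF, against 6039.6, 6179 and 6089.8 in the controls, a log2 change of 1.06 ± 0.14 (adjusted p = 7.53e-05), with no overlap at either time. Acaca, acetyl-CoA carboxylase, which makes malonyl-CoA, had 2271, 2212 and 1614 with EGF at 4 h, against 2451, 2120.2 and 2410 in the controls, a log2 change of -0.21 ± 0.18 (adjusted p = 0.433). Its 12 h signals were 5861, 4846 and 3726 with EGF, against 3932, 3734 and 3443 in the controls, a log2 change of 0.35 ± 0.18 (adjusted p = 0.14), and its groups overlapped at both times. Without EGF replicate 3 at 12 h, Acaca was higher at that time (adjusted p by limma 0.0172).

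Among the desaturases and elongases, Elovl6 was higher at both times, Scd at 12 h, and Fads1 lower at 4 h. Elovl6, which elongates palmitate, had 1938, 1903 and 1703 with EGF at 4 h, against 932, 1347 and 1118 in the controls, a log2 change of 0.71 ± 0.21 (adjusted p = 0.0199). At 12 h it had 5841, 4499 and 3362 with EGF, against 1674, 1229 and 1431 in the controls, a log2 change of 1.62 ± 0.21 (adjusted p = 4.32e-05), clear of the controls at both times. The 4 h call was lost without EGF replicate 1, EGF replicate 2 or control replicate 1 (adjusted p by limma 0.0628 to 0.0889) and without the replicate 3 pair (0.0673). Its dimmer probe set had a 12 h change of 2.63.

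Scd, the stearoyl-CoA desaturase, had 1376, 834 and 651 with EGF at 4 h, against 828, 765 and 792 in the controls, which overlapped, a log2 change of 0.19 ± 0.26 (adjusted p = 0.644). After 12 h it had 1087, 1488 and 1738 with EGF, against 347, 406 and 468 in the controls, a log2 change of 1.75 ± 0.26 (adjusted p = 0.00017). Its 12 h controls averaged 0.512 times the 4 h controls. Fads1, a desaturase of polyunsaturated fatty acids, had 937, 799.9 and 810.3 with EGF at 4 h, against 1339.6, 1400.5 and 1638 in the controls, a log2 change of -0.76 ± 0.14 (adjusted p = 0.00154). Its 12 h signals were 3626, 3181 and 3146 with EGF, against 3309.7, 3319 and 3967 in the controls, a log2 change of -0.09 ± 0.14 (adjusted p = 0.671), with overlap, and its 12 h controls averaged 2.42 times the 4 h controls. Fads2, its partner desaturase, had log2 changes of -0.76 ± 0.33 (adjusted p = 0.102) and 0.01 ± 0.33 (adjusted p = 0.984), and Elovl5, an elongase of polyunsaturated fatty acids, had -0.21 ± 0.11 (adjusted p = 0.159) and -0.02 ± 0.11 (adjusted p = 0.907), so neither passed.

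The acyl-CoA synthetases Acsl1 and Acsl3 activate long-chain fatty acids for use in lipids or in oxidation. Acsl1 had 10160.1, 9801 and 10379 with EGF at 4 h, against 2655, 2408 and 2853 in the controls, a log2 change of 1.93 ± 0.12 (adjusted p = 1.33e-07). At 12 h its signals were 2860.4, 2674 and 2322 with EGF, against 3168, 2993 and 3099.9 in the controls, a log2 change of -0.24 ± 0.12 (adjusted p = 0.142), with the EGF arrays just below the controls. The EGF mean at 12 h was 0.259 times that at 4 h, while the control mean was 1.17 times. Acsl3 had 3035, 2530 and 2978 with EGF at 4 h, against 1813, 1669 and 2265 in the controls, a log2 change of 0.57 ± 0.18 (adjusted p = 0.0294). At 12 h Acsl3 had 3362, 3272 and 5061 with EGF, against 1828, 2036 and 1946 in the controls, a log2 change of 0.97 ± 0.18 (adjusted p = 0.000899), without overlap at either time. The 4 h call of Acsl3 was lost without EGF replicate 1, EGF replicate 3, control replicate 1 or control replicate 2 (adjusted p by limma 0.0766 to 0.115) and without the replicate 3 pair (0.0507).

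Whether the EGF effect itself differed between the experiments was tested as the 12 h effect minus the 4 h effect. It was higher for 15 of the 35 genes and lower for 1, with 19 in neither direction, against 6.55% higher and 7.45% lower over all genes. The median difference was 0.71 for the 35 genes and 0.04 for all genes. Of the 17 cholesterol enzymes 10 had a larger effect at 12 h, and 0 a smaller one by limma, with 0 smaller at an unadjusted p under 0.05. Of the 12 fatty acid enzymes 3 were larger and 1 smaller. Time coincides with the experiment and mostly with the actin ratios, and these cannot be told apart.

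Among passing differences above 0, those of Stard4, Dhcr7 and Fdft1 were the largest, at 2.06 ± 0.60 (adjusted p = 0.0418), 1.88 ± 0.34 (adjusted p = 0.00328) and 1.73 ± 0.25 (adjusted p = 0.000846). All 3 had values of opposite sign at the 2 times, although only Dhcr7 passed at both, and the difference of Stard4 was 1.42 without EGF replicate 3 of 4 h. Acsl1 had the only passing difference below 0, at -2.17 ± 0.17 (adjusted p = 9.29e-06), and Msmo1, at -0.25 ± 0.27 (adjusted p = 0.598), did not differ beyond its error. Idi1, whose 12 h change lay farthest from 0, had a difference of 2.02 ± 0.63 (adjusted p = 0.0556), which passed without EGF replicate 1 or 3 of 12 h and was 1.31 without replicate 3. The differences of Hsd17b7, Ebp, Stard4, Acss2 and Fads1 lost their calls without 9, 8, 8, 5 and 11 of the 12 arrays, each left out alone. With the replicate number as a block, the differences of Hsd17b7, Stard4, Acss2 and Fads1 no longer passed (adjusted p by limma 0.0651, 0.0613, 0.052 and 0.086), and those of Idi1 and Sqle passed (0.0311 and 0.0413).

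**Figure D4:**
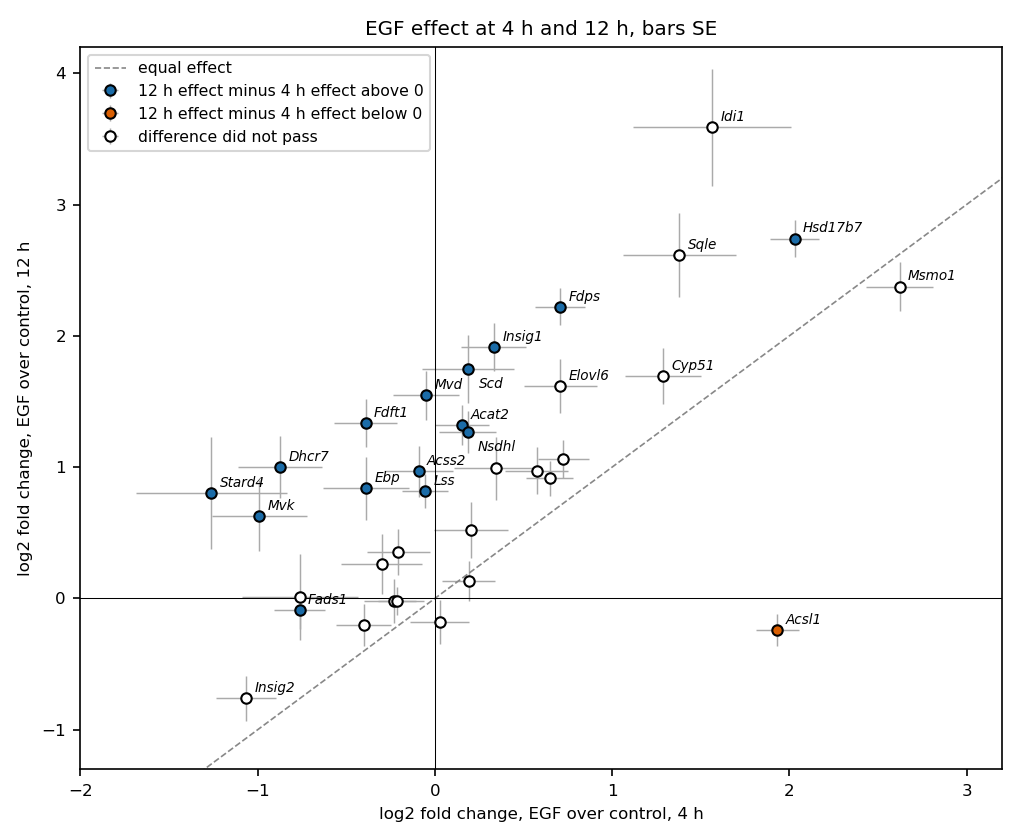
Log2 fold change of EGF over control at 12 h (vertical) against that at 4 h (horizontal) for each of the 35 genes, with the line of equal change. Colour shows whether the 12 h effect minus the 4 h effect passed above 0, passed below 0 or did not pass. Most genes lie above the line, and Acsl1 lies far below it with 1.93 at 4 h and -0.24 at 12 h.

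More than 1 probe set passed the signal limit for 18 of the genes. Their calls were the same on all probe sets for 16 genes at 4 h and for 14 at 12 h. For the other 2 and 4 genes some probe sets passed and others did not, and no gene had calls in opposite directions.

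Other sterol genes were called in both directions. Of 27 genes listed, 17 were tested, with 4 higher and 2 lower at 4 h and 3 higher and 4 lower at 12 h. At 4 h these were 23.5% higher and 11.8% lower, against 12.8% and 19.6% of all genes, and at 12 h 17.6% and 23.5%, close to the 16.5% and 24.2% of all genes. Their median log2 fold change was -0.21 at 4 h and 0.09 at 12 h, against -0.17 and -0.09 for all genes. Tmem97, a sterol-regulated membrane protein, was higher at both times, at 1.20 ± 0.19 (adjusted p = 0.000453) and 2.51 ± 0.19 (adjusted p = 4.41e-07). Soat1, which esterifies cholesterol, was also higher at both, at 1.47 ± 0.13 (adjusted p = 1.99e-06) and 0.94 ± 0.13 (adjusted p = 6.52e-05). Abca1 and Abcg1, sterol exporters named after their values were seen, made up the other two that were higher at 4 h. Vldlr, a lipoprotein receptor, was lower at both times, at -1.27 ± 0.17 (adjusted p = 0.000111) and -1.10 ± 0.17 (adjusted p = 0.000257), as was Faxdc2, at -0.93 ± 0.17 (adjusted p = 0.00104) and -2.61 ± 0.17 (adjusted p = 8.51e-08). Mylip, which marks lipoprotein receptors for degradation, was at -0.57 ± 0.21 (adjusted p = 0.0556) and was lower at 12 h, at -1.91 ± 0.21 (adjusted p = 1.14e-05).

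Of 33 other lipid synthesis genes, 24 were tested, with 7 higher and 3 lower at 4 h and 12 higher and 3 lower at 12 h. These were 29.2% higher and 12.5% lower at 4 h and 50% and 12.5% at 12 h, beside the shares of all genes just given. Their median log2 fold change was 0.03 at 4 h and 0.36 at 12 h. Acsl4, another acyl-CoA synthetase, was higher at both times, at 2.57 ± 0.13 (adjusted p = 1.37e-08) and 1.96 ± 0.13 (adjusted p = 8.61e-08). Fabp5, a fatty acid binding protein, was also higher at both, at 0.68 ± 0.22 (adjusted p = 0.0303) and 3.41 ± 0.22 (adjusted p = 7.9e-08). Lpin1, a phosphatidate phosphatase, was lower at 4 h, at -2.84 ± 0.27 (adjusted p = 4.51e-06), with -0.29 ± 0.27 (adjusted p = 0.417) at 12 h. Idh1, which yields cytosolic NADPH, was lower at 4 h, at -1.15 ± 0.13 (adjusted p = 1.93e-05), with -0.11 ± 0.13 (adjusted p = 0.536) at 12 h. Dgat2, which makes triglycerides, was at -0.41 ± 0.15 (adjusted p = 0.0562) and was lower at 12 h, at -1.45 ± 0.15 (adjusted p = 7.17e-06).

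Fatty acid oxidation genes were mostly lower where they passed. Of 21 listed, 17 were tested, with 1 higher and 7 lower at 4 h. At 12 h 8 were lower and 0 higher by limma, with 0 higher at an unadjusted p under 0.05. The genes called lower were 41.2% of the list at 4 h and 47.1% at 12 h, against 19.6% and 24.2% of all genes, which also lean lower. Their median log2 fold change was -0.46 at 4 h and -0.54 at 12 h. Cpt1a, the gate for fatty acid entry into mitochondria, was the 1 higher at 4 h, at 0.63 ± 0.15 (adjusted p = 0.00676), and was lower at 12 h, at -0.86 ± 0.15 (adjusted p = 0.000612). Etfdh, which passes electrons to the respiratory chain, was lower at both times, at -0.80 ± 0.17 (adjusted p = 0.00372) and -1.03 ± 0.17 (adjusted p = 0.000436). Hadh and Eci1, enzymes of the oxidation cycle, were lower at both times, Hadh at -0.64 ± 0.19 (adjusted p = 0.0234) and -1.03 ± 0.19 (adjusted p = 0.000938) and Eci1 at -0.75 ± 0.17 (adjusted p = 0.00433) and -0.54 ± 0.17 (adjusted p = 0.0212). Decr1 was lower at 4 h, at -0.55 ± 0.12 (adjusted p = 0.00476), with 0.01 ± 0.12 (adjusted p = 0.959) at 12 h.

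Markers of other cells moved with EGF. The summed signals of the 10 measured markers of oligodendrocytes, other cells with high sterol synthesis, were 3296 to 4114 with EGF at 4 h, against 6252 to 7220 in the controls. At 12 h they were 4287 to 5652 with EGF and 9077 to 9582 in the controls. Most of both gaps was Cnp and Mbp. Cnp had means of 1832 with EGF and 3688 in the controls at 4 h, and 3684 and 7115 at 12 h. Mbp had 977 and 2296 at 4 h, and 707 and 1725 at 12 h. Mag lay above 0 at 4 h (0.11 ± 0.37) and 12 h (0.56 ± 0.37) and did not pass. Mog, Mobp, Olig1, Olig2, Sox10, Ugt8 and Opalin were below the signal limit. Of these, Olig1, Ugt8 and Opalin had 12 h means with EGF above the controls, Mog, Mobp and Olig2 below, and Sox10 near equal. The 8 fibroblast markers, all above it, summed to 213475 to 227529 with EGF and 247352 to 278564 in the controls at 4 h, and to 114943 to 184509 with EGF and 208968 to 250133 in the controls at 12 h.

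The 10 microglia markers, 6 of them below the limit, summed to 1987 to 2161 with EGF and 2587 to 2976 in the controls at 4 h, and to 1945 to 2932 with EGF and 1100 to 1316 in the controls at 12 h. Cd68, a lysosomal protein and the 1 microglia marker called, made up most of the 12 h gap, with means of 924 with EGF and 62.1 in the controls, a log2 change of 3.70 ± 0.58 (adjusted p = 0.000243). Aif1, Ptprc, Tyrobp and C1qa had 12 h means with EGF below those of the controls. Cd74 had 12 h means of 382 with EGF and 196 in the controls, and Csf1r 344 and 239, although neither passed. Cx3cr1, at 203 and 113, and C1qb, at 143 and 50.2, were also above their controls but below the signal limit. Itgam, below the limit too, was near equal, at 19.0 and 18.9.

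The 4 measured Schwann markers, all above the limit and 1 of them (S100b) also in the astrocyte list, summed to 28043 to 29718 with EGF and 18034 to 19854 in the controls at 4 h, and to 8048 to 10479 with EGF and 9799 to 12112 in the controls at 12 h. Most of the 4 h gap was Egr2, also known as an early response gene, with means of 9110.1 with EGF and 1297 in the controls, a log2 change of 2.82 ± 0.22 (adjusted p = 8.32e-07). At 4 h Prx, at -0.38 ± 0.18 (adjusted p = 0.146), and S100b, at -0.15 ± 0.36 (adjusted p = 0.801), lay below 0 and did not pass. At 12 h Egr2 was higher, at 1.18 ± 0.22 (adjusted p = 0.000866), and Prx and Pmp22 were lower, at -0.74 ± 0.18 (adjusted p = 0.00663) and -0.50 ± 0.13 (adjusted p = 0.00942).

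The 4 endothelial markers, 3 of them below the limit, summed to 1152 to 1545 with EGF and 2599 to 2993 in the controls at 4 h, and to 1030 to 1587 with EGF and 2432 to 2982 in the controls at 12 h. All 6 neuron markers were below the limit. The astrocyte markers summed to 131944 to 159453 with EGF and 125702 to 137966 in the controls at 4 h, and to 138472 to 199354 with EGF and 147579 to 153894 in the controls at 12 h, sums that are almost wholly Vim and Gja1. Of the 6 tested astrocyte markers 2 were lower at 12 h, which is 33.3%, against 24.2% of all genes. Glul, glutamine synthetase, had 12 h means of 2980.1 with EGF and 7210.1 in the controls, a log2 change of -1.28 ± 0.15 (adjusted p = 2.83e-05). Aldoc, an aldolase of astrocytes, had means of 31 with EGF and 2655 in the controls, a log2 change of -5.64 ± 0.64 (adjusted p = 1.81e-05). The part of these markers in the sterol and fatty acid results was not tested.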

How the data were processed

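RNA of astrocyte cultures was hybridised to Affymetrix 1-colour arrays, 12 in all, with 3 arrays for each of EGF and control at 4 h and at 12 h. The deposited table holds the intensity of each probe set, not logged, which the authors computed with MAS5, per the submitters' processing notes. Its version is not given in the sources used here. Trimmed means (2%) of the arrays were 1500.46 to 1500.56, so the signals had been scaled before deposit and were not rescaled. Gene symbols came from GEO's platform annotation, and the 436 probe sets with several symbols named no gene. Depth does not apply to arrays, and their number limits the precision.

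Of 31042 probe sets that are not controls, 18625 reached the 40th percentile of mean signal (215) and entered the tests. Values were log2(signal + 24.4), with the 10th percentile as the offset, which understates changes of dim genes. The fit (limma 3.58.1, R 4.3.3) took group means over all 12 arrays, with an intensity trend and 8 residual degrees of freedom. The 2 EGF contrasts and their difference were tested two-sided with Benjamini-Hochberg adjustment over all probe sets tested, at 0.05, and every adjusted p is from limma. The procedure was tested on simulated data. Counts over all genes use 1 probe set for each of 10261 genes. Figures were drawn with matplotlib 3.10.9.

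Signals on every array are given for the genes past the threshold at either time and for Sqle, Srebf1, Srebf2, Fasn and Acaca. Of each other list, the 3 tested genes with the smallest p at each time are given by their log2 changes. The genes, lists, tests and alternatives were chosen with earlier results of these data known. After the group means were removed, same-numbered EGF and control arrays correlated at 0.121, 0.150 and 0.376 at 4 h, all above the limit of 0.1 and so taken as pairing, although EGF 1 with control 2 (0.142) and EGF 2 with control 1 (0.138) lay in the same range and only replicate 3 stood out. At 12 h same-numbered arrays correlated at 0.0826, -0.111 and -0.103, which was not taken as pairing. The pairing rests on the sister cultures named in the design and on these correlations. Alternatives changed the offset, the filter, the scaling, the trend, the replicate block, the array set, the arrays used and the probe set.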

Additional observations from a re-analysis of the deposited data

Results flagged for a closer look

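The EGF effect differed between the 12 h and the 4 h experiment, by limma's test of the difference itself, for 16 of the 35 genes. The values are the 12 h log2 fold change minus that at 4 h. Among the mevalonate enzymes the difference was 1.16 for Acat2, 1.62 for Mvk, 1.60 for Mvd and 1.52 for Fdps. Fdft1 and Lss, on the way to lanosterol, had 1.73 and 0.87. Later sterol enzymes had 1.08 (Nsdhl), 0.71 (Hsd17b7), 1.23 (Ebp) and 1.88 (Dhcr7). Insig1 had 1.58 and Stard4 2.06. In the fatty acid branch Acss2 had 1.06, Scd 1.56 and Fads1 0.68, and Acsl1 alone had a value below 0, -2.17. The calls of Hsd17b7, Stard4, Acss2 and Fads1 were lost with the replicate block, and that of Fads1 under 18 of the alternative settings. The experiment, the time and most of the actin ratios change together and cannot be told apart. With 3 arrays in each group, no array was tested for standing apart within its group.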

How the results depend on the processing

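Each count and each gene's change was recomputed under 23 other settings. Of the gene values with a setting, 749 at 4 h, 772 at 12 h and 699 of the difference kept their direction and their side of the threshold, or passed in neither. At 4 h 31 lost a call and 6 gained one, at 12 h 2 and 12 did, and for the difference 66 and 20 did. The 1 reversal was the difference of Lss, which was -0.11 with the next brightest probe set, against 0.87. Of 1109 values that passed in neither fit, 34 changed sign. With the next brightest probe set, 3 genes were lower at 4 h and 0 at 12 h, against 5 and 1 with the brightest. The calls lost were those of Mvk and Stard4 at 4 h and of Insig2 at 12 h. Why the probe sets differ was not tested. Leaving out 1 array at a time, 3 to 6 genes were lower at 4 h, with 3 without EGF replicate 2 or control replicate 2 of 4 h. Over all genes the share lower at 4 h ran from 14.5% without EGF replicate 2 of 4 h to 26.4% without EGF replicate 3 of 12 h. With the replicate block, which pairs the arrays by number, 11 genes were higher and 4 lower at 4 h, 22 and 1 at 12 h, and 13 and 1 in the difference. Over all genes this block gave 13.0% higher and 19.7% lower at 4 h and 16.9% and 24.6% at 12 h. For the difference over all genes this block gave 6.15% and 7.05%. At 4 h, where the numbers were taken to pair the arrays although only replicate 3 stood out, it changed no call but that of Stard4. With the array set as a block, 22 genes had a larger effect at 12 h, against 15, while over all genes the share also grew, to 14.2%, against 6.55%. Median centring moved the 4 h median of all probe sets tested to -0.04, from -0.15, and split the calls over all genes at 4 h into 1520 higher and 1421 lower, against 1318 and 2011. At 12 h this split was 2011 and 1963, against 1698 and 2485. The 35 genes had 11 higher and 4 lower at 4 h and 23 and 1 at 12 h under that scaling. The signal over background limits what dim genes can show: no filter raised the median SE to 0.38, against 0.23.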
